A study of Mus musculus with 9 samples.

Results

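Immunoglobulin and plasma cell genes were taken from the cardiac read table by gene symbol, as the heavy chain constant, variable and diversity genes, the kappa and lambda constant and variable genes, and Jchain. The rule found 248 of the 41710 gene names listed. They comprised 113 heavy variable, 100 kappa variable and 3 lambda variable genes, 17 diversity segments, 8 heavy constant genes, Igkc, 4 lambda constant genes and Jchain. The symbol rule also caught Ighmbp2, which encodes a helicase and no immunoglobulin, and it is described apart from the other 247. They were chosen by symbol, but as a group selected on read levels that earlier results of the same 9 libraries had shown, so their own levels are given as a description without tests.

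The libraries came from whole hearts of male mice of FVB/N background at an age of 8 months, with 3 libraries in each of 3 groups. Tg-RKIP mice carry the RAF kinase inhibitor protein RKIP (gene Pebp1) under the alpha-MHC promoter, which drives expression in the myocardium. Tg-GRK2 mice were described as transgenic for the G protein-coupled receptor kinase GRK2 (gene Grk2), with no promoter given in the sources used here. FVB mice carry no transgene.

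Immunoglobulins are made by cells of the B lineage, first as receptors on B cells and later as secreted antibody from plasma cells. A heavy chain joins a variable part, assembled from V, D and J segments, to a constant part. The constant part sets the class (IgM, IgD, IgG, IgE or IgA), and B cells can switch from IgM to IgG, IgE or IgA. Light chains are of kappa or lambda type, and in mice most are kappa. Jchain encodes the joining chain that links IgM pentamers and IgA dimers. Each B cell clone keeps its own V segments, so that the V genes read in a tissue reflect which clones it holds.

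The IgG subclasses and, to a larger extent, some of the V genes share stretches of sequence, which bears on the counts given for them. The starts of the 4 IgG constant genes, in the first constant domain, are shown because the balance between them differed most between the groups. They are the first 75 bases of the annotated transcripts (GENCODE M21, build GRCm38, minus strand of chromosome 12), 5′ to 3′, with capitals at the 27 positions where the 4 genes are not all alike.
Ighg1: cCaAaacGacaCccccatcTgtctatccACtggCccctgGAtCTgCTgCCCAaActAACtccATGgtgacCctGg
Ighg2b: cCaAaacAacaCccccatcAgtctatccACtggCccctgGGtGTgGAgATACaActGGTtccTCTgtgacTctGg
Ighg2c: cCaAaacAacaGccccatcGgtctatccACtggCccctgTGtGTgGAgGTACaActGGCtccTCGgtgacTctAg
Ighg3: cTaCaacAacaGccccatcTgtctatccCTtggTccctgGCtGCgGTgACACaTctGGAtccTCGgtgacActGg

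The last 75 bases of 4 kappa V genes are shown because these genes led the V reads of different groups. They run into the part of the V segment that begins the third antigen-contacting loop. All 4 lie on the minus strand of chromosome 6 in the same annotation. In the first pair, from the same V family, capitals mark the 8 positions at which the genes differ. Igkv8-30 was a leading V gene of Tg-RKIP libraries and Igkv8-24 of Tg-GRK2-labelled libraries.
Igkv8-30: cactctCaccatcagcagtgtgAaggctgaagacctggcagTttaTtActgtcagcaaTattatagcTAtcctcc
Igkv8-24: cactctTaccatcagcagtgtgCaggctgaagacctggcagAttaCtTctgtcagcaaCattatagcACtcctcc
The second pair differs at 5 positions, again in capitals, and its members led the V reads of Tg-GRK2-labelled libraries (Igkv4-72) and of FVB libraries (Igkv4-57).
Igkv4-72: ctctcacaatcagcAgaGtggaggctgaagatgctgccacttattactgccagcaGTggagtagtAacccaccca
Igkv4-57: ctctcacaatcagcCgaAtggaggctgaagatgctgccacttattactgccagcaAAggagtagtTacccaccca

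Reads of 50 bases cannot always be placed between such genes. Of all windows of 50 bases in the annotated transcript, 100% were found in no other member for Igha, Ighm, Igkc and Jchain. The share was 99.6% for Ighg1, 95.9% for Ighg2b, 94.5% for Ighg2c and 98.4% for Ighg3. For V genes the median was 79.4%, and 25 V genes were under 50%, Ighv2-2 (44.6%) and Igkv1-110 (49.2%) among them. Igkv8-24 and Igkv2-137 reached 100%. How the counting divided reads shared by several genes is not given in the sources used here, so counts of single V genes are uncertain. The annotation follows another mouse strain than FVB/N, and V genes in antibody-making cells also carry mutations. The effect of either on the counts was not tested.

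The libraries held 25458108 to 33447654 reads on transcripts. The mitochondrial share of reads was 11.7% ± 0.156 in Tg-RKIP, 22.6% ± 0.299 in the Tg-GRK2-labelled libraries and 23.1% ± 0.158 in FVB (SD, n = 3 each), so levels relative to all reads moved with this composition. Pebp1 had 252196 to 321666 reads in Tg-RKIP libraries and 7140 to 8446 in FVB. Grk2 had 1460 to 1765 reads in the Tg-GRK2-labelled libraries and 1302 to 1589 in FVB, a log2 fold change of 0.05 (adjusted p = 0.354, edgeR's quasi-likelihood test), so that these libraries are named by their label throughout. One of them, replicate 1, stood apart in Rn18s, an 18S ribosomal RNA gene picked out after its values were seen, with 1.31% of its reads against 0.168% to 0.27% in the other 8 libraries. The folds of immunoglobulin reads without this library are within the range given for libraries left out in turn.

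Reads of immunoglobulin genes were most abundant in Tg-RKIP hearts. Together the 247 genes had 7530, 9423 and 7386 reads in Tg-RKIP, 2297, 2192 and 2593 in the Tg-GRK2-labelled libraries, and 814, 898 and 814 in FVB. The groups did not overlap. Per 1000000 reads of the library (RPM) this was 287 ± 4.87 in Tg-RKIP, 78.5 ± 0.565 in the Tg-GRK2-labelled libraries and 29.7 ± 0.650 in FVB (SD, n = 3 each). Tg-RKIP was thus 9.67-fold above FVB and 3.66-fold above the Tg-GRK2-labelled libraries, and the latter were 2.64-fold above FVB. With TMM normalisation, which scales libraries by the bulk of their genes, these folds were 7.46, 2.85 and 2.62. In bulk tissue, fewer cells of a type and less RNA per cell cannot be told apart.

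Each class of gene followed the same order of groups, as the plot of reads by class shows. Constant genes had 23.1 ± 1.03 RPM in FVB, 59.5 ± 0.542 in the Tg-GRK2-labelled libraries and 226 ± 5.25 in Tg-RKIP (SD, n = 3 each). Variable genes, counted apart, had 5.19 ± 0.452, 14.6 ± 0.558 and 43.7 ± 1.03 in the same order. The fold of Tg-RKIP over FVB was 9.78 for constant and 8.42 for variable genes. The transgenic groups overlapped in the lambda genes, with constant genes at 0.945 ± 0.0928 RPM in Tg-RKIP and 0.80 ± 0.271 in the Tg-GRK2-labelled libraries. The 3 lambda V genes together had 10 to 19 reads in a Tg-RKIP library and 9 to 12 in a library labelled Tg-GRK2, and overlapped as well.

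**Figure D1:**
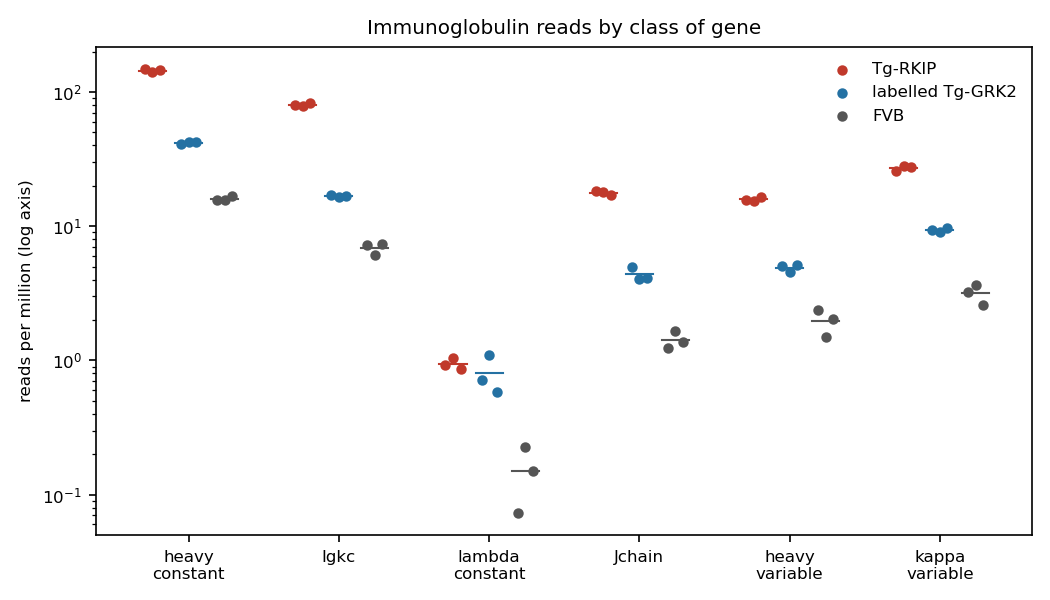
RPM on a log axis for 6 classes of immunoglobulin genes, with 1 point per library, a line at each group mean and colours for the 3 groups. Tg-RKIP libraries lie above all others in every class plotted but the lambda constant genes, where they overlap with the Tg-GRK2-labelled libraries.

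Of the 247 genes, 198 had at least 1 read and 49 had none, the 17 diversity segments among the latter. These segments are a few bases long and cannot hold a read of 50 bases by themselves. The expression filter left 44 genes for the fit across all 15504 genes tested. Of these 44, 39 were called above and 1 below FVB in Tg-RKIP, where 73.9% of all tested genes were called. In the Tg-GRK2-labelled libraries, 19 were called higher and 3 lower than in FVB, where 24.5% of all genes were called. Between Tg-RKIP and those libraries, 30 were called higher and 6 lower, against 74.5% of all genes. The genes were chosen for these differences and the filter admits genes through their highest group, so nothing is read from these counts. The same holds for the median log2 fold change of the 44. It was 3.76 for Tg-RKIP against FVB and 1.95 for the Tg-GRK2-labelled libraries against FVB, beside 0.0085 and -0.0023 over all tested genes.

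The heavy chain classes did not move together. Igha, the constant gene of IgA, which lies on chromosome 12 from 113218450 to 113223856 (build GRCm39, minus strand), had 1326, 1525 and 1261 reads in Tg-RKIP. It had 81, 85 and 76 reads in the Tg-GRK2-labelled libraries and 50, 71 and 60 in FVB. The Tg-GRK2-labelled libraries were close above FVB for this gene, 0.32 ± 0.15 on the log2 scale (± standard error here and below), while Tg-RKIP was above FVB by 4.14 ± 0.083 and above the Tg-GRK2-labelled libraries by 3.81 ± 0.078.

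Ighm, the constant gene of IgM (113382178 to 113386350 on the same chromosome), gave another picture. It had 1062, 1345 and 1050 reads in Tg-RKIP, 896, 876 and 1050 in the Tg-GRK2-labelled libraries and 199, 224 and 204 in FVB. Both transgenic groups lay above FVB by almost the same amount, 2.09 ± 0.050 and 2.07 ± 0.051 on the log2 scale, and they differed from each other by 0.019 ± 0.037. That last value depends on the scaling, since in RPM alone Ighm was higher in Tg-RKIP.

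Expressed as a share of the heavy constant reads, the class composition was nearly the same in the libraries of a group and differed between the groups. Igha took 34.5%, 32.5% and 34.1% in Tg-RKIP, 6.74%, 7.17% and 5.49% in the Tg-GRK2-labelled libraries and 11.7%, 14.5% and 13.4% in FVB. Ighm took 28.2% ± 0.517 in Tg-RKIP, 74.8% ± 0.985 in the Tg-GRK2-labelled libraries and 45.9% ± 0.598 in FVB (SD, n = 3 each). The 4 IgG genes together took 35.9% ± 0.576, 16.5% ± 0.419 and 37.3% ± 1.84 in the same order. The classes made after switching, IgG and IgA with the few Ighe reads included, thus added up to 69.6% ± 0.688 of the heavy constant reads in Tg-RKIP, 23.1% ± 1.16 in the Tg-GRK2-labelled libraries and 50.6% ± 0.631 in FVB. The 95% Wilson interval of the Igha share was 31.1% to 33.8% in Tg-RKIP replicate 2 and 11.7% to 17.9% in FVB replicate 2. Such intervals cover counting error only, since reads were not collapsed to molecules.

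**Figure D2:**
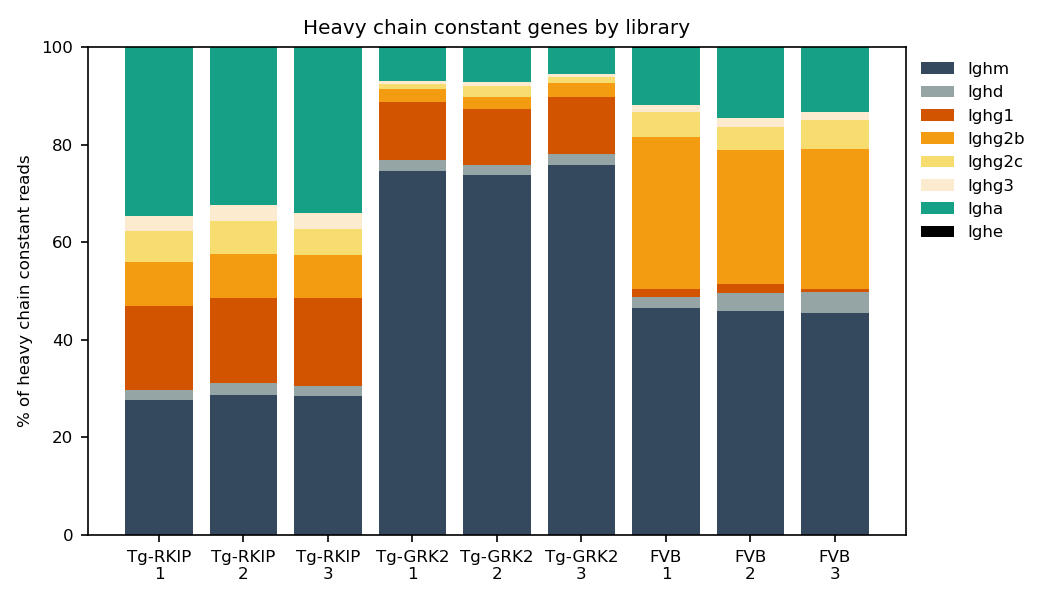
Stacked bars of the percentage of heavy chain constant reads in each gene, for each of the 9 libraries, those labelled Tg-GRK2 shown by that label. Igha fills 32.5% to 34.5% of the Tg-RKIP bars, Ighm 73.9% to 75.8% of the bars labelled Tg-GRK2, and Ighg2b 27.4% to 31.1% of the FVB bars.

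The subclasses of IgG differed still more. Ighg1 had 664, 825 and 665 reads in Tg-RKIP and 142, 137 and 161 in the Tg-GRK2-labelled libraries, but 7, 9 and 2 in FVB. Its mean level was 94.8-fold above FVB in Tg-RKIP and 23.4-fold above FVB in the Tg-GRK2-labelled libraries in TMM-scaled counts, both resting on 18 FVB reads. Ighg2b had the opposite place, with 133, 134 and 129 reads in FVB, 33, 28 and 39 in the Tg-GRK2-labelled libraries and 344, 422 and 327 in Tg-RKIP. It was the one constant gene that lay below FVB in every library labelled Tg-GRK2, by 2.08 ± 0.13 on the log2 scale, and above FVB in every Tg-RKIP library, by 1.09 ± 0.084.

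Within the IgG reads, Ighg1 made up 49.1% ± 1.52 in Tg-RKIP, 70.9% ± 2.54 in the Tg-GRK2-labelled libraries and 3.51% ± 2.05 in FVB (SD, n = 3 each). Ighg2b made up 24.9% ± 0.241, 16.1% ± 1.85 and 78.0% ± 1.31. FVB hearts therefore held IgG reads mainly of Ighg2b, and the Tg-GRK2-labelled libraries mainly of Ighg1. As given with the sequences above, 94.5% to 99.6% of the 50-base windows in the annotated transcripts of each IgG gene were found in no other member. The spans counted for these genes also take in introns, which those windows do not cover.

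Ighg2c had 245, 322 and 198 reads in Tg-RKIP, 13, 27 and 19 in the Tg-GRK2-labelled libraries and 22, 23 and 27 in FVB. Ighg3 had 120, 145 and 117 reads in Tg-RKIP, and its counts of 6, 9 and 7 were the same in the Tg-GRK2-labelled libraries and in FVB. For both genes Tg-RKIP lay above the other groups, which overlapped, with log2 fold changes over FVB of 3.03 ± 0.17 and 3.73 ± 0.22. Ighd, the constant gene of the IgD that naive B cells carry beside IgM, had 79, 114 and 80 reads in Tg-RKIP, 27, 23 and 32 in the Tg-GRK2-labelled libraries and 9, 19 and 20 in FVB. Ighe, of the IgE class, stayed at 0 to 3 reads in every library, too few to compare.

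Relative to IgM, 127 ± 2.43 IgG reads and 119 ± 5.77 Igha reads were counted per 100 Ighm reads in Tg-RKIP (SD, n = 3). In FVB the numbers were 81.1 ± 3.16 and 28.7 ± 3.34, and in the Tg-GRK2-labelled libraries 22.0 ± 0.786 and 8.66 ± 1.28. The files list each constant gene as 1 exon over the whole gene, introns included. Reads of spliced and unspliced RNA were therefore counted together, and the secreted and membrane forms of the heavy chains could not be separated. A TPM value, which divides by length, is lowered for a constant gene by its introns, so levels of different classes were compared in reads. Reads in turn rise with the counted length, so the order of classes can depend on the measure. In Tg-RKIP, Igha exceeded Ighm in reads (33.7% and 28.2% of the heavy constant genes) but not in TPM (30.1% and 32.7%).

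Among light chains, Igkc, the single kappa constant gene (chromosome 6 from 70703419 to 70703950, plus strand), had 2087, 2620 and 2094 reads in Tg-RKIP. It had 500, 467 and 556 reads in the Tg-GRK2-labelled libraries and 197, 190 and 197 in FVB. Over FVB this was 3.17 ± 0.051 on the log2 scale in Tg-RKIP and 1.29 ± 0.065 in the Tg-GRK2-labelled libraries. Per 100 heavy constant reads, Igkc had 55.6 ± 1.17 reads in Tg-RKIP, 40.4 ± 1.15 in the Tg-GRK2-labelled libraries and 43.0 ± 3.73 in FVB (SD, n = 3 each).

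Lambda reads were few. Iglc2 had 14, 17 and 8 reads in Tg-RKIP, 20, 26 and 15 in the Tg-GRK2-labelled libraries and 2, 3 and 3 in FVB, and was the one constant gene with its highest counts in the Tg-GRK2-labelled libraries, although 1 Tg-RKIP library with 17 reads lay above 1 of these with 15. Against the floor of 3 reads per library, Iglc2 exceeded FVB at least 6.43-fold in the Tg-GRK2-labelled libraries and at least 3.30-fold in Tg-RKIP. Iglc1 had 0 to 6 and Iglc3 0 to 13 reads per library, and Iglc4 had none. The lambda share of light chain constant reads was 1.17% ± 0.141 in Tg-RKIP, 4.52% ± 1.52 in the Tg-GRK2-labelled libraries and 2.18% ± 1.29 in FVB (SD, n = 3 each). FVB overlapped with both other groups in this share, and Tg-RKIP lay below every library labelled Tg-GRK2. Among lambda V genes, Iglv2 had 6, 9 and 7 reads in the Tg-GRK2-labelled libraries, 3, 1 and 4 in Tg-RKIP and none in FVB, while Iglv1 had 11, 9 and 7 reads in Tg-RKIP and at most 4 in any other library. Iglv3 had 0 to 5 reads.

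Jchain (chromosome 5 from 88667668 to 88675750, minus strand) had 472, 599 and 438 reads in Tg-RKIP, 145, 113 and 136 in the Tg-GRK2-labelled libraries and 34, 51 and 37 in FVB. Its groups were separate, with log2 fold changes over FVB of 3.26 ± 0.11 and 1.59 ± 0.14. Set against the heavy chains, Jchain had 12.3 ± 0.452 reads per 100 heavy constant reads in Tg-RKIP, 10.5 ± 1.39 in the Tg-GRK2-labelled libraries and 8.88 ± 1.35 in FVB (SD, n = 3 each). Every Tg-RKIP library lay above every FVB library in this ratio, and the Tg-GRK2-labelled libraries overlapped with both. Ighmbp2, the helicase gene caught by the rule, had 149 to 192 reads in Tg-RKIP, 95 to 126 in the Tg-GRK2-labelled libraries and 97 to 115 in FVB.

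The V genes showed which segments the antibody messages carried. At least 1 read fell on 175 of the 216 V genes in Tg-RKIP, 132 in the Tg-GRK2-labelled libraries and 81 in FVB, from 3708, 1322 and 442 V reads in all. At an equal depth of 100 V reads, 61.96 to 63.8 different V genes would be met in a Tg-RKIP library, 42.9 to 47.1 in a library labelled Tg-GRK2 and 36.01 to 36.4 in FVB. The 10 V genes with the most reads held 22.6% to 23.6% of the V reads of a Tg-RKIP library, 45.1% to 51.4% in the Tg-GRK2-labelled libraries and 63.0% to 65.8% in FVB. V reads were thus spread over more genes in Tg-RKIP, also at equal depth.

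A single gene led in FVB. Igkv4-57 had 39, 47 and 31 reads in the FVB libraries, 25.3%, 29.2% and 24.4% of all their V reads. The same gene had 11, 10 and 7 reads in Tg-RKIP and 5, 2 and 0 in the Tg-GRK2-labelled libraries, which together hold far more V reads. With log2 fold changes against FVB of -2.41 ± 0.35 and -4.08 ± 0.46, it had the lowest value of the 34 tested V genes in both transgenic groups. The latter value rests on few reads, and was -5.24 without Tg-GRK2 replicate 1 and -3.46 without Tg-GRK2 replicate 3. Of its 50-base windows, 56.4% were found in no other member.

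In the Tg-GRK2-labelled libraries the first places were taken by Igkv4-72, with 27, 39 and 37 reads, and Igkv8-24, with 43, 23 and 36. Igkv4-72 had 19, 13 and 20 reads in Tg-RKIP and 3, 0 and 0 in FVB. Igkv8-24 had 5, 1 and 3 reads in Tg-RKIP, although those libraries held more V reads, and 0, 0 and 1 in FVB. It differed by 3.71 ± 0.45 on the log2 scale between Tg-RKIP and the Tg-GRK2-labelled libraries, in favour of the latter. With a library left out, the log2 fold change of Tg-RKIP against these libraries was -4.31 to -3.18, the former without Tg-RKIP replicate 1. Ighv2-2 was the leading heavy V gene of these libraries with 21, 25 and 29 reads, against 9, 25 and 12 in Tg-RKIP and none in any FVB library, and with it the Ighv2 family made up 25.5% ± 2.69 of heavy V reads there, 6.54% ± 1.46 in Tg-RKIP and 4.20% ± 0.506 in FVB (SD, n = 3 each). Ighv1-55 had 16, 21 and 19 reads in the Tg-GRK2-labelled libraries, 15, 9 and 12 in Tg-RKIP and 2 in each FVB library.

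No V gene stood out to this extent in Tg-RKIP. Igkv8-30 had the most reads, 35, 50 and 39, which was 3.17% to 3.44% of the V reads of a library. It had 2, 3 and 3 reads in the Tg-GRK2-labelled libraries and 0, 0 and 2 in FVB, so that this gene and its relative Igkv8-24, shown above, had opposite places in the transgenic groups. Igkv2-137 had 36, 23 and 41 reads in Tg-RKIP, 10, 22 and 22 in the Tg-GRK2-labelled libraries and none in FVB. Igkv1-110 was among the 10 leading genes of all 3 groups, with 38, 36 and 29, then 8, 10 and 19, then 1, 11 and 10 reads. Ighv3-1, with 27, 14 and 11 reads in Tg-RKIP, had 0 to 4 elsewhere.

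Ighv1-26, Ighv1-53, Ighv1-64 and Igkv10-96 complete the 6 heavy and the 6 kappa V genes with the most reads. Ighv1-26 was nearly level between Tg-RKIP (9, 17 and 14 reads) and FVB (16, 9 and 6 reads) in counts, and it stood for 4.72% to 10.4% of the V reads in FVB against 0.815% to 1.24% in Tg-RKIP. Ighv1-53 had 20, 13 and 17 reads in the Tg-GRK2-labelled libraries, and 13, 14 and 1 in Tg-RKIP, where replicate 3 was far below the others. Ighv1-64 had 8, 25 and 16 reads in Tg-RKIP and 2 to 5 in every other library. Igkv10-96 had 20, 40 and 25 reads in Tg-RKIP, 8, 8 and 10 in the Tg-GRK2-labelled libraries and 4, 3 and 1 in FVB.

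**Figure D3:**
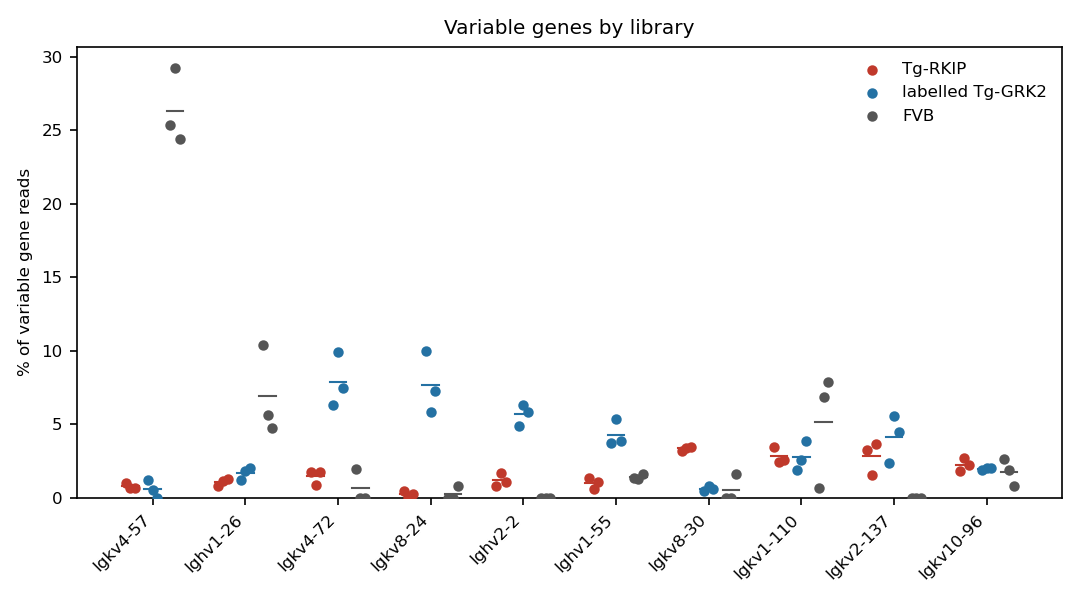
Percentage of all V gene reads taken by 10 of the V genes named in the text, with 1 point per library and a line at each group mean. Igkv4-57 lies between 24.4% and 29.2% in FVB and at or below 1.16% elsewhere, and Igkv4-72, Igkv8-24 and Ighv2-2 are highest in the Tg-GRK2-labelled libraries.

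V gene use was alike within groups and unlike between them. The difference in V gene reads between 2 libraries was divided by what sampling of reads alone gives, as a chi-square over its degrees of freedom for genes with at least 10 reads in the pair, so that 1 stands for sampling noise. For the 9 pairs of libraries within a group this ratio was 0.945 to 3.17, with a median of 1.64. For the 27 pairs from different groups it was 6.25 to 14.4, with a median of 7.35, and the ranges did not overlap. The heavy constant genes behaved likewise, at 0.379 to 1.69 within groups and 51.2 to 177 between groups. Over all gene names the ratio was 1.71 to 21.6 within groups (median 1.98) and 9.84 to 283 between groups (median 239). These ranges overlapped through pairs within the Tg-GRK2-labelled libraries, at 1.92 to 21.6 (median 17.7). Within Tg-RKIP the ratio was 1.71 to 2.045 and within FVB 1.83 to 2.54. Replicate 1 of the Tg-GRK2-labelled libraries stood apart in Rn18s, as given above, and its part in the overlap was not tested. A larger difference between groups than within them was therefore not particular to V genes. The ratio also grows with the number of reads, so its size cannot be compared between sets of genes. Pairs within FVB had only 5 to 6 V genes with at least 10 reads.

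The Morisita-Horn overlap, a measure from 0 to 1 that depends less on depth and was added after the data were seen, was 0.856 to 0.924 within groups and 0.107 to 0.458 between groups. Tg-RKIP and the Tg-GRK2-labelled libraries overlapped by 0.398 to 0.458. FVB shared less with either, at 0.153 to 0.214 with Tg-RKIP and 0.107 to 0.174 with the Tg-GRK2-labelled libraries. Of the 10 leading V genes of each group, Tg-RKIP and FVB shared 3, Tg-RKIP and the Tg-GRK2-labelled libraries shared 2, and the latter and FVB shared 1. In the kappa genes, the Igkv4 family held 54.7% ± 4.01 of kappa V reads in FVB, 21.5% ± 0.482 in Tg-RKIP and 22.3% ± 2.88 in the Tg-GRK2-labelled libraries (SD, n = 3 each).

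As background, V gene use of antibody-making cells in a tissue commonly differs between individual mice of one strain, since each animal expands its own clones. The labels name a heart for each library. The SDs given here measure the spread between the libraries of a group as deposited. Standard errors, p-values and the shares of genes called rest on edgeR's estimate of this spread. That estimate is shared by the 3 groups and drawn towards that of other genes. These counts do not show how much of the spread between animals the spread between libraries covers.

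**Figure D4:**
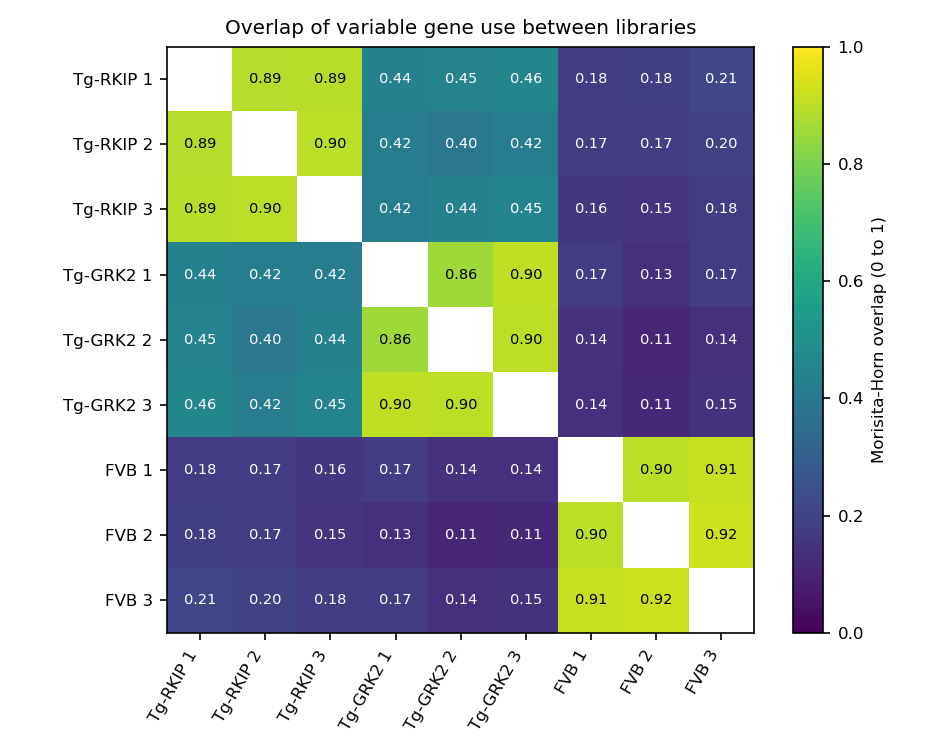
Morisita-Horn overlap of V gene use for each pair of the 9 libraries, from 0 (dark) to 1 (bright), with the value in each cell and the diagonal left blank. Pairs within a group lie at 0.86 to 0.92 and pairs from different groups at 0.11 to 0.46.

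Genes of the pathway that the rule did not take were tested in the fit across all genes, with edgeR's quasi-likelihood test and Benjamini-Hochberg adjustment. B cell genes rose in Tg-RKIP. Of 16 tested B cell genes, 14 were higher in Tg-RKIP than in FVB and 2 did not pass, with a median log2 fold change of 2.15 beside 0.0085 over all genes. Over all tested genes, 36.8% were called higher and 37.1% lower in this comparison. Cd79a, a signalling chain of the B cell receptor, had 56, 81 and 71 reads in Tg-RKIP against 8, 10 and 3 in FVB, a log2 fold change of 2.92 (adjusted p = 1.13e-08). Its partner Cd79b (2.24, adjusted p = 5.12e-07) and Ms4a1, which encodes CD20 (2.10, adjusted p = 2.04e-06), rose as well. Pax5, the factor that maintains B cell identity, had 33, 40 and 18 reads in Tg-RKIP, 17 in each library labelled Tg-GRK2 and 2, 1 and 1 in FVB, so that both transgenic groups lay above FVB. Its log2 fold changes were 4.02 (adjusted p = 1.64e-07) and 3.47 (adjusted p = 3.7e-05).

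In the Tg-GRK2-labelled libraries, 6 of the 16 B cell genes were higher than in FVB and 10 did not pass, with a median of 0.79, where 12.2% of all tested genes were called higher. Pax5 and Ms4a1 (1.25, adjusted p = 0.00865) were among the 6, while Cd79a had 12, 14 and 18 reads and did not pass (0.96, adjusted p = 0.0705). With libraries left out this count was 2 without Tg-GRK2 replicate 3, 3 without Tg-GRK2 replicate 2 or FVB replicate 2 and 4 without Tg-GRK2 replicate 1, and it was 3 when only these 2 groups were fitted. Between the transgenic groups, 12 B cell genes were higher in Tg-RKIP and 1 was lower, where 37.9% of all tested genes were called higher. All these counts are low in absolute terms, with at most 218 reads for any B cell gene listed in any library.

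Plasma cell genes moved less evenly. Against FVB, 9 of 14 tested were higher and 1 was lower in Tg-RKIP, with a median log2 fold change of 0.71, and 4 were higher and 1 lower in the Tg-GRK2-labelled libraries, with a median of 0.18. The 10 of 14 called in Tg-RKIP compare with 73.9% called over all tested genes, a similar share, and the 9 higher with 36.8% of all tested genes called higher. In the Tg-GRK2-labelled libraries, 12.2% of all tested genes were called in each direction. Pou2af1, a co-activator of immunoglobulin genes, had 31, 43 and 38 reads in Tg-RKIP, 13, 10 and 24 in the Tg-GRK2-labelled libraries and 1, 6 and 4 in FVB. Its log2 fold changes of 2.94 (adjusted p = 1.38e-06) and 1.96 (adjusted p = 0.00359) were the nearest of these genes to those of the antibody genes. Sdc1, which encodes the plasma cell surface protein CD138 and is made by epithelia too, rose by 1.22 (adjusted p = 1.58e-12) in Tg-RKIP, and Xbp1, a factor of the secretory pathway used in many cells, by 0.22 (adjusted p = 1.63e-05).

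Some defining genes of plasma cells did not follow. Mzb1, a chaperone of antibody assembly, had 30, 38 and 24 reads in Tg-RKIP and 15, 23 and 12 in FVB, and the difference of 0.51 did not pass (adjusted p = 0.133). Irf4, a factor of plasma cell differentiation, did not pass either (0.42, adjusted p = 0.0788). Prdm1, which encodes the plasma cell factor BLIMP-1 and is expressed in other cells as well, had 123, 129 and 124 reads in the Tg-GRK2-labelled libraries but 69, 99 and 52 in Tg-RKIP and 50, 72 and 60 in FVB. It rose by 0.95 over FVB in the Tg-GRK2-labelled libraries (adjusted p = 5e-05) and did not pass in Tg-RKIP (-0.10, adjusted p = 0.584). Tnfrsf17, which encodes the survival receptor BCMA, and Derl3 were too low to be tested, at 2 to 11 and 0 to 11 reads.

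**Figure D5:**
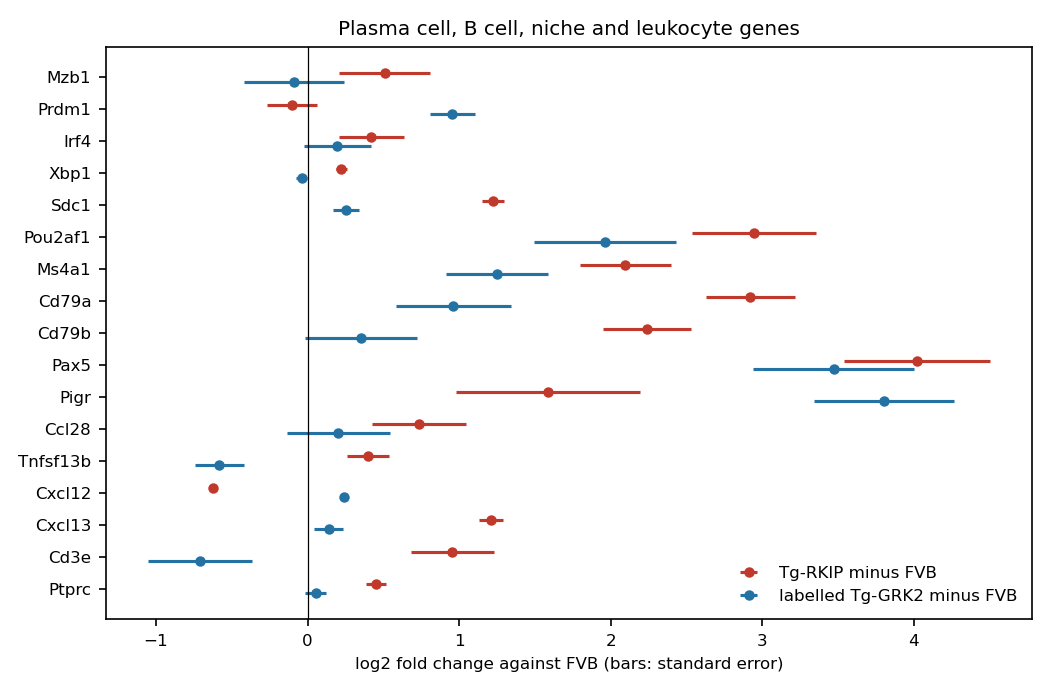
Log2 fold changes against FVB, with standard errors as bars, for the named genes outside the immunoglobulin set that passed the expression filter, without the 2 airway genes. The B cell genes Ms4a1, Cd79a, Cd79b and Pax5 lie at 2.10 or higher in Tg-RKIP, while Mzb1, Prdm1, Xbp1, Tnfsf13b, Cxcl12 and Cd3e lie on opposite sides of 0 in the transgenic groups.

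Genes of V segment assembly and of early B cells were at or near the floor of 3 reads. Rag1, Rag2, Igll1, Dntt and Vpreb1 had 0 to 5 reads in every library, and none could be tested. Against FVB, 2 of 5 tested genes of the class switch and germinal centre list were higher and 2 were lower in Tg-RKIP. The median was 0.26, and 73.9% of all tested genes were called. In the Tg-GRK2-labelled libraries 1 was higher and 1 lower, where 24.5% of all tested genes were called.

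Genes that attract, keep or transport antibody-making cells and antibody rose in part. Against FVB, 8 of 9 tested were higher and 1 was lower in Tg-RKIP (median 1.58), where 36.8% of all tested genes were called higher. In the Tg-GRK2-labelled libraries 3 were higher and 1 lower (median 0.24), where 12.2% of all tested genes were called in each direction. The 8 became 5 without FVB replicate 3. Cxcl13, a chemokine that draws B cells, had 381, 482 and 370 reads in Tg-RKIP, 168, 142 and 175 in the Tg-GRK2-labelled libraries and 134, 136 and 142 in FVB, and rose by 1.21 in Tg-RKIP (adjusted p = 1.16e-11). Tnfsf13b, which encodes the B cell survival factor BAFF, rose by 0.40 in Tg-RKIP (adjusted p = 0.0138) and fell by 0.58 in the Tg-GRK2-labelled libraries (adjusted p = 0.0101). Cxcl12, a chemokine of bone marrow niches that is broadly expressed in stroma, fell by 0.63 in Tg-RKIP (adjusted p = 5.54e-18) and rose by 0.24 in the Tg-GRK2-labelled libraries (adjusted p = 1.61e-09). Its direction depended on the measure, since on log2(TPM + 0.1) Cxcl12 was higher by 0.33 in Tg-RKIP than in FVB.

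Pigr, the receptor that carries IgA and IgM across epithelia, had its highest counts where Igha did not. It had 26, 34 and 34 reads in the Tg-GRK2-labelled libraries, 6, 6 and 12 in Tg-RKIP and 3, 1 and 2 in FVB. Over FVB, the rise was 3.80 in the Tg-GRK2-labelled libraries (adjusted p = 2.13e-06) and 1.58 in Tg-RKIP (adjusted p = 0.0232). The latter did not pass without Tg-RKIP replicate 3 (adjusted p = 0.137), FVB replicate 2 (0.110) or FVB replicate 3 (0.0507). Ccl28, a chemokine for IgA-making cells, rose by 0.74 in Tg-RKIP (adjusted p = 0.0374; 0.0508 with the replicate number as a block), and it did not pass without Tg-RKIP replicate 2 (adjusted p = 0.160), Tg-RKIP replicate 3 (0.0528) or FVB replicate 3 (0.185). Its receptor Ccr10 had 4 to 15 reads and was not tested. Of 9 tested receptors that bind immunoglobulins, 6 were above and 2 below FVB in Tg-RKIP (median 0.75), beside 36.8% and 37.1% of all tested genes. In the Tg-GRK2-labelled libraries 1 was lower by edgeR, where 12.2% of all tested genes were called lower, and none was called by DESeq2.

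Genes of other tissues and cells also differed between the groups, in part in another order than the immunoglobulin genes. Whether the differences are linked was not tested. Airway epithelium genes, a tissue next to the heart that holds IgA-making cells, had a summed level of 103 to 109 TPM in Tg-RKIP, 210 to 219 TPM in the Tg-GRK2-labelled libraries and 0.588 to 1.15 TPM in FVB, with 9 of the 17 at 0 in every FVB library. Of 9 tested, 9 were higher in each transgenic group than in FVB. Over all tested genes, 36.8% were called higher in Tg-RKIP and 12.2% in the Tg-GRK2-labelled libraries. Between the transgenic groups, 8 airway genes were lower in Tg-RKIP, where 36.6% of all tested genes were called lower. Scgb1a1, the main secreted protein of club cells, had 388, 510 and 395 reads in Tg-RKIP, 1190, 1085 and 1284 in the Tg-GRK2-labelled libraries and none in FVB. Bpifa1, another airway secretory protein, had 544, 705 and 597, then 928, 862 and 1014 reads, and none in FVB. The order of the 2 transgenic groups in airway genes was thus the reverse of that in immunoglobulin reads. The surfactant genes Sftpc, Sftpb and Sftpa1 and the lung alveolar gene Ager had at most 11 reads in any library.

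Cartilage genes had a summed level of 330 to 336 TPM in Tg-RKIP, 12.5 to 13.8 in the Tg-GRK2-labelled libraries and 13.3 to 14.1 in FVB. Of 7 tested, 6 were higher in Tg-RKIP than in FVB (36.8% of all tested genes), and none was called in the Tg-GRK2-labelled libraries by edgeR, with 1 higher and 1 lower at an unadjusted p under 0.05 and none by DESeq2. Red blood cell genes summed to 3477 to 3645 TPM in Tg-RKIP, 1665 to 1690 in the Tg-GRK2-labelled libraries and 739 to 753 in FVB. All 5 were higher than in FVB in both transgenic groups (medians 1.71 and 1.19), where 36.8% and 12.2% of all tested genes were called higher. Red blood cell genes were the only list of other tissues with the same order of the 3 groups as the immunoglobulin reads.

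T cell genes rose in Tg-RKIP, with 9 of 11 above and 1 below FVB (median 1.06), where 36.8% of all tested genes were called above and 37.1% below. Cd3e, a chain of the T cell receptor complex, had 35, 56 and 33 reads there, 7, 8 and 17 in the Tg-GRK2-labelled libraries and 15, 17 and 17 in FVB. In the Tg-GRK2-labelled libraries none of the 11 was called by edgeR or DESeq2, with 5 lower at an unadjusted p under 0.05 (median -0.75), while immunoglobulin reads were above FVB. The thymus genes Foxn1, Psmb11 and Ptcra had at most 2 reads in any library, and of the 2 tested thymus genes 1 was higher in Tg-RKIP. All 5 general leukocyte genes were higher in Tg-RKIP than in FVB (median 1.04), where 36.8% of all tested genes were called higher. In the Tg-GRK2-labelled libraries 2 were lower by edgeR, where 12.2% of all tested genes were called lower. DESeq2 called 1 lower, and at an unadjusted p under 0.05 by edgeR 2 were higher and 2 lower. Ptprc, which encodes CD45, lay at 0.45 (adjusted p = 2.13e-06) in Tg-RKIP and 0.05 (adjusted p = 0.651) in the Tg-GRK2-labelled libraries. Heart muscle genes summed to 47742 to 48624 TPM in Tg-RKIP, 47669 to 49154 in the Tg-GRK2-labelled libraries and 49598 to 49903 in FVB. Of 8 tested, 6 were lower and 1 higher in Tg-RKIP than in FVB, where 73.9% of all tested genes were called and 37.1% were called lower. In the Tg-GRK2-labelled libraries 5 were lower and 3 higher, where 12.2% of all tested genes were called in each direction.

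Outside the set, the genes whose level followed that of Jchain most closely over the 9 libraries were Col6a1, Hba-a2, Prkar2b, Apol6, Col3a1, Lrp1, Gm47283, Plin1, Fam110c and Gas1, with Pearson correlations of log2 levels of 0.991 to 0.997. They include collagen genes, a haemoglobin gene and Plin1, which coats the lipid droplets of fat cells, and none is a B cell gene. The 9 points fall into 3 groups that share their order of levels, so this is a description of libraries and carries no test.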

How the data were processed

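Cardiac RNA was sequenced as single reads of 50 bases in 9 libraries, 3 in each of the groups Tg-RKIP, Tg-GRK2 and FVB as labelled. The authors deposited read counts per transcript, without normalization, and TPM values per transcript, which divide reads by transcript length and were recomputed here to within 5.5e-06. The submitters' processing notes name the build GRCm39. The aligner, the counter and the handling of shared reads are not given in the sources used here.

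Each of 41710 gene names received the sum of its transcripts (127558 in all), for counts and for TPM. Genes passing filterByExpr (15504) entered the model of edgeR 4.0.16 under R 4.3.3 (TMM, glmQLFit and glmQLFTest, a mean per group over all 9 libraries) at a Benjamini-Hochberg adjusted p under 0.05. Members, gene lists and named genes were chosen with earlier results of these data known. Members got levels, shares and log2 fold changes with standard errors, without p-values. The named genes were all constant genes, Jchain, Ighmbp2, the 6 heavy, 6 kappa and 3 lambda V genes with the most reads, the leading V gene of each library, the defining genes of the lists, Pebp1, Grk2 and the 10 genes most correlated with Jchain. Other genes named, Rn18s among them, were chosen after their values were seen.

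The floor was 3 reads per library, and a group at or under it in all its libraries gives only a bound on a fold. Alternatives were DESeq2 1.42.0 and its size factors, library size only, no filter, limma 3.58.1 on log2(TPM + 0.1) and log2(TPM + 1), the most abundant transcript, a fit of 2 groups, the replicate number as a block and each library left out. Tested on simulated data for Tg-RKIP against FVB with 15093 genes, edgeR recovered 84.4% of 96 genes changed 1.5-fold and 93.8% of 97 changed 2-fold, with 9 of 181 calls false. The simulation changed few genes, in either direction, and gave all genes a common dispersion. In the data 73.9% of tested genes were called, so these rates do not give the error rate of the calls reported here. Printed sequences are from GENCODE M21 transcripts. Some genes of the lists are counted in the lists but not reported singly here.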

Additional observations from a re-analysis of the deposited data

Results flagged for a closer look

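The labels give 3 libraries per group, too few for a check of single libraries against their group. Results are listed here because the transgenic groups differed from each other in their change against FVB.

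Among the immunoglobulin genes, Ighg2b was above FVB in every Tg-RKIP library and below FVB in every library labelled Tg-GRK2. The log2 difference between Tg-RKIP and the Tg-GRK2-labelled libraries was 3.17, and it was not tested because the gene was chosen with these values known.

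The other results come from edgeR's test of Tg-RKIP against the Tg-GRK2-labelled libraries, which is the test of the difference between the changes against FVB, given as log2 differences with adjusted p-values. Tg-RKIP was higher in the B cell genes Ms4a1 (0.848, adjusted p = 0.0044), Cd79a (1.96, adjusted p = 5e-07) and Cd79b (1.89, adjusted p = 2.2e-06). It was also higher in the plasma cell genes Xbp1 (0.263, adjusted p = 1.63e-06), Sdc1 (0.97, adjusted p = 3.43e-11) and Pou2af1 (0.982, adjusted p = 0.00644), and in Cd3e (1.66, adjusted p = 3.3e-05) and Ptprc (0.399, adjusted p = 8.34e-06). Of the niche genes, Tnfsf13b (0.981, adjusted p = 3.97e-06) and Cxcl13 (1.07, adjusted p = 4.81e-11) were higher in Tg-RKIP.

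The Tg-GRK2-labelled libraries were higher in Prdm1 (-1.06, adjusted p = 9.82e-07), Pigr (-2.22, adjusted p = 6.51e-06), Cxcl12 (-0.87, adjusted p = 1.35e-20), Scgb1a1 (-1.74, adjusted p = 2.41e-17) and Bpifa1 (-0.876, adjusted p = 4.6e-12). Cxcl12 and Tnfsf13b were called in opposite directions against FVB in the transgenic groups. For Cxcl12 this depended on the measure, since on log2(TPM + 0.1) it was higher than in FVB by 0.33 in Tg-RKIP, and higher by 0.10 in Tg-RKIP than in the Tg-GRK2-labelled libraries. Pigr and the airway genes had their highest level in the Tg-GRK2-labelled libraries. Igha had its most reads in Tg-RKIP, and its 81, 85 and 76 reads in the Tg-GRK2-labelled libraries lay above the 50, 71 and 60 of FVB. Only its share of heavy constant reads was lowest in the Tg-GRK2-labelled libraries, where Ighm took 74.8%. The cause of these differences was not tested. All of these differences rest on 3 libraries per group.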

How the results depend on the processing

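The tested genes called were 11460 for Tg-RKIP against FVB, 3793 for the Tg-GRK2-labelled libraries against FVB and 11551 between the transgenic groups. For the Tg-GRK2-labelled libraries against FVB they fell to 1660 on the most abundant transcript, and to 2191 and 2232 by limma on TPM with pseudocounts of 0.1 and 1. The other settings and comparisons stayed within 1.5 times, with 10504, 2673 and 10579 by DESeq2 and 11012 to 11570, 3114 to 3773 and 11156 to 11658 with a library left out. With the replicate number as a block they were 11401, 3660 and 11491. Libraries of the same number did not deviate together (correlations of -0.0414 to 0.0422), so the numbers do not pair them. With library size only, the median log2 fold change of all genes was 0.384 for Tg-RKIP against FVB and 0.383 between the transgenic groups. The higher and lower calls were then 9710 and 2649 (by TMM 5709 and 5751), and 9608 and 2847 (by TMM 5874 and 5677). By limma on log2(TPM + 0.1) they were 8889 and 1947, 1578 and 613 for the Tg-GRK2-labelled libraries against FVB (by TMM 1895 and 1898), and 8494 and 2274.

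The calls of tested immunoglobulin genes higher in Tg-RKIP than in FVB rose from 39 to 59 without Tg-GRK2 replicate 2, FVB replicate 1 or FVB replicate 3, where smaller groups let more genes pass the filter. For the Tg-GRK2-labelled libraries against FVB they fell from 19 to 12 when only those groups were fitted.

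The fold of immunoglobulin reads as RPM (9.67 for Tg-RKIP against FVB, 2.64 for the Tg-GRK2-labelled libraries against FVB, 3.66 between them) moved beyond the spread of replicates as follows. Without mitochondrial reads it was 8.42 and 3.21 for the first and the third, and by TMM 7.46 and 2.85. In TPM it was 10.4 and 3.84. With constant genes only it was 2.58 and 3.80 for the second and the third, and without the 5 leading V genes 10.1 and 2.72 for the first and the second. With a library left out the folds were 9.56 to 9.77, 2.61 to 2.67 and 3.64 to 3.70.

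Shares in TPM, which divide by gene spans, were 30.1%, 5.28% and 11.2% for Igha and 32.7%, 79.1% and 50.7% for Ighm in Tg-RKIP, the Tg-GRK2-labelled libraries and FVB. Ighg1 was 16.1% and 9.74% in the first and second, and Ighg2b 8.68%, 2.35% and 27.0% in all. Ighg2c was 8.29% in Tg-RKIP and 6.75% in FVB, Ighg3 3.01% in Tg-RKIP, and the lambda share 0.866% and 1.85% in the first and second. The order of the group means in TPM was that in reads for each of these shares. Within Tg-RKIP, Igha was above Ighm in reads and below it in TPM.

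The ratio for V gene use over sampling noise had medians within Tg-RKIP of 1.38 for genes with at least 30 reads, 1.94 for heavy and 1.47 for kappa V genes, and 1.70 for V genes with mostly unique windows, a set chosen after seeing the data. That set gave 1.19 within FVB. Between Tg-RKIP and the Tg-GRK2-labelled libraries it was 11.9 with at least 30 reads and 6.27 for heavy V genes. Between Tg-RKIP and FVB it was 23.6, 4.74 and 8.81 with at least 30 reads, for heavy and for kappa V genes, and between the Tg-GRK2-labelled libraries and FVB 58.0, 10.9 and 14.2. Within FVB no pair had enough genes of 30 reads.

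Directions of called genes reversed for Cxcl12 on TPM (0.33 and 0.32 against FVB, 0.10 and 0.10 against the Tg-GRK2-labelled libraries, with pseudocounts of 0.1 and 1). Sdc1 in the Tg-GRK2-labelled libraries reversed on its most abundant transcript (-0.28). Grk2 between the transgenic groups turned to 0.33 with library size only, 0.26 on the most abundant transcript and 0.42 and 0.40 on TPM. The causes were not tested. Depth limits the single V genes most, many of them under 10 reads in FVB.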
